A study of Rattus norvegicus with 8 samples.

Results

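Rat spermatocyte-enriched testis cells (Spc) were compared with undifferentiated spermatogonia (USg) over every gene of a table of RNA read counts, with 2 libraries in each group. These are 4 of the 8 samples of the series, all from the Brown Norway strain, and the labels used here name no altered allele and no age. The 16762 gene symbols compared were all those of the table except the ribosomal RNA genes Rn45s and Rn18s. The libraries were chosen by their labels and not by any measured value. USg was a spermatogonial cell line grown in SG medium, which contains the growth factors GDNF and FGF. Its RNA was taken on day 0 according to the protocol in the labels, before plating on laminin and after 0 h in SD medium, although the sample titles carry T120. Spc were primary cells that had not bound to plastic, collagen-I or laminin and had spent 2.5 days in DMEM:Ham's F12 medium with 10% fetal bovine serum. Stage, source (a line against primary tissue), selection and medium therefore differed together between the groups and cannot be told apart. The labels call the USg libraries replicate cultures of the line and do not say whether the Spc libraries came from separate animals or preparations, so p-values measure only the spread between these libraries, which may be technical.

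Undifferentiated spermatogonia are the mitotic cells that hold the stem cells of the testis, and they depend on GDNF, which signals through the receptor pair GFRA1 and RET. Their descendants become spermatocytes, which replicate their DNA a last time, pair the homologous chromosomes along the synaptonemal complex, break and repair DNA to form crossovers, and then pass through a long pachytene stage. During pachytene the cells transcribe many genes whose proteins are needed later, in round and elongating spermatids, among them parts of the acrosome and the sperm tail. Germ cell copies of common enzymes and chromatin proteins also appear at this stage, and genes on the X and Y chromosomes are silenced in a separate nuclear domain.

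After the ribosomal RNA genes were left out, the libraries held 2477603 counts in USg 1, 5696997 in USg 2, 5304178 in Spc 1 and 4829318 in Spc 2. Ribosomal RNA genes had taken 7.8% of the counts of USg 1, 0.00295% of USg 2, 0.00368% of Spc 1 and 0.733% of Spc 2. The replicates of USg lay further apart than those of Spc, with an SD of the log2 difference between replicates of 0.86 against 0.37 across genes. Levels are given below in CPM, counts scaled to a common library size, and the values of a gene are always in the order USg 1 and USg 2, then Spc 1 and Spc 2. Fold changes are log2 values of Spc over USg ± SE from edgeR's quasi-likelihood test with Benjamini-Hochberg adjustment. CPM values are not divided by gene length, so they compare libraries and not genes.

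Of 11956 genes with enough counts to test, 2289 were higher and 2197 lower in Spc, which is 19.1% and 18.4% of the genes tested and 37.5% in either direction. Of these, 2251 were higher and 2138 lower by at least 2-fold, and the median log2 fold change over all tested genes was -0.03. The 2 libraries of Spc lay on one side of both USg libraries for 8757 genes (73.2%), so a lack of overlap alone was common. The counts depended on which library was left out, with 4097 higher and 4042 lower without USg 1, 3877 and 3484 without USg 2, 1243 and 782 without Spc 1 and 1205 and 667 without Spc 2. In each of those fits the group left with 1 library was assumed to vary like the other group. Below, the number of list members that rose and fell (passed the adjusted p threshold of 0.05) is followed in parentheses by the numbers higher and lower without a given library wherever either moved by more than 1.5 times and was 3 or more in one of the fits. Likewise a log2 fold change is followed by its value without a library that moved it by more than 1, and where the library left in that group held 0 or 1 count this value depends on the prior count and is no bound. A gene could pass the count filter through 1 group alone, so counts and medians over tested members are descriptions. Each list's main counts are to be read against the 19.1% higher and 18.4% lower of all genes tested. The numbers without a given library are not to be read against these shares. For the DNA replication list they are described in words only. Over all genes, calls became more frequent without a USg library and less frequent without an Spc library, so a list can move with them.

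**Figure D1:**
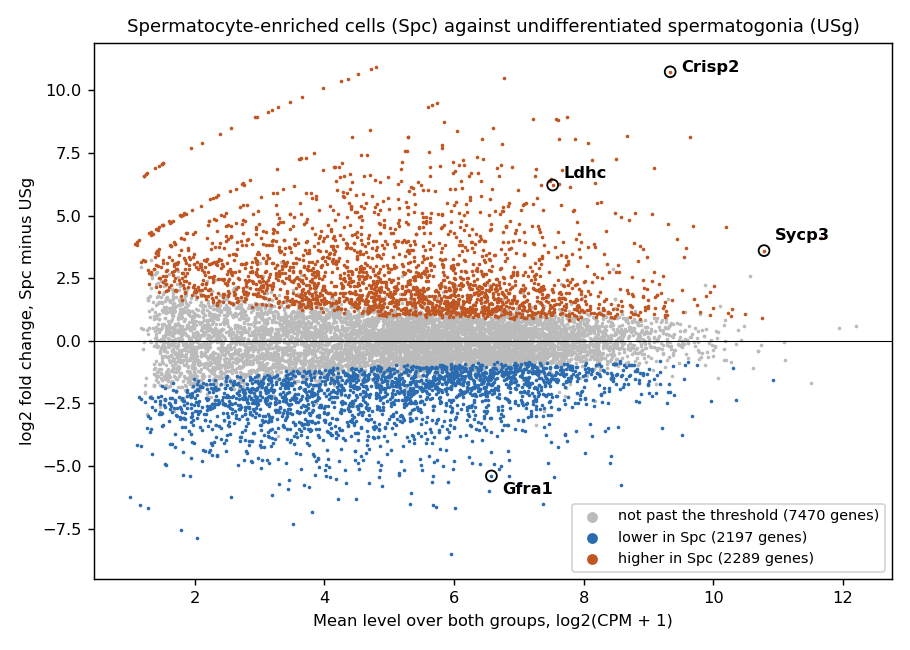
Each point is 1 of the 11956 genes tested, with its mean level over the 4 libraries on the horizontal axis (log2 CPM) and the log2 fold change of Spc over USg on the vertical axis. The 2289 genes higher in Spc and the 2197 lower in Spc are coloured, and the called genes fill both sides at all levels.

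The 4 marker genes separated the groups in every library. Sycp3, a lateral element protein of the synaptonemal complex, stood at 242 and 294 CPM in USg and 3080 and 3430 CPM in Spc and rose by 3.60 ± 0.30 (adjusted p = 0.00145). Crisp2, a secretory protein gene of the acrosome and sperm tail, was at 0.771 and 0.701 CPM in USg and 1286 and 1292 CPM in Spc, a rise of 10.74 ± 0.42 (adjusted p = 0.00114). Ldhc, the lactate dehydrogenase of germ cells, went from 5.40 and 4.38 to 339.5 and 382 CPM (6.22 ± 0.35, adjusted p = 0.00114). Gfra1, the GDNF co-receptor of undifferentiated spermatogonia, had 183 and 186 CPM in USg and 3.85 and 4.89 CPM in Spc and fell (-5.39 ± 0.34, adjusted p = 0.00114). Each group's libraries were close together for all 4 genes and far from those of the other group. In bulk libraries such as these, fewer cells of a type and less RNA per cell cannot be told apart.

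Upstream sequences of Ldhc and of 4 genes of the sperm tail are shown because they hold short motifs that a later result counts. They are the 250 bases before the annotated start of these 5 genes, from RefSeq for assembly GRCr8, written 5′ to 3′ on the strand of the gene. Both strands were searched for 7 motifs. Capitals mark the matches found, to the RFX motif GTTGCC (reverse GGCAAC), the MYB motif AACNGNC (reverse GNCNGTT) or the cAMP response element core TGACG (reverse CGTCA), which lies within the full element TGACGTCA. The other motifs, the STRA8 site CNCCTCAG, the ETS core CCGGAA and the T-box site TCACACCT, had no match in these 5 windows. Matches that overlap run together in the capitals. A match describes the letters and is not evidence of binding. Ldhc lies at chr1:106522745-106522994 on the plus strand, Spag6 at chr17:86261825-86262074 plus, Drc1 at chr6:31779257-31779506 minus, Iqcg at chr11:81235080-81235329 plus and Ropn1l at chr2:84164217-84164466 minus. The submitters' notes name the builds rn6 and rn5 instead, so these positions are not tied to the counts.
Ldhc: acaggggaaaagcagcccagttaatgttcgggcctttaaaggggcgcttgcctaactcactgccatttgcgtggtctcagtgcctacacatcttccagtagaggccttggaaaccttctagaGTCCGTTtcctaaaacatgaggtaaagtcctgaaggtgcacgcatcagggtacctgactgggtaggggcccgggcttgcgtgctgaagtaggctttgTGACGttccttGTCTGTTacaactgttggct
Spag6: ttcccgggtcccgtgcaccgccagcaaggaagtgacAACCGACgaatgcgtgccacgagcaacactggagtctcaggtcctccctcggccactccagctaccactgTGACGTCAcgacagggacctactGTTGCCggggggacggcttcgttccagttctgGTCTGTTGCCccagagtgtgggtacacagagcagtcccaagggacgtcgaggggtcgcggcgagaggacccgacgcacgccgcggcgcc
Drc1: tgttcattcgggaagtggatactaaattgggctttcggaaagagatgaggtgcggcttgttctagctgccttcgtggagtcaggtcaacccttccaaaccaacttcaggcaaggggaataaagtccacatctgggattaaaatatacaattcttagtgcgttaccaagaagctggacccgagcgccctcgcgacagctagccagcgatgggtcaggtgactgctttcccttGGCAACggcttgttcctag
Iqcg: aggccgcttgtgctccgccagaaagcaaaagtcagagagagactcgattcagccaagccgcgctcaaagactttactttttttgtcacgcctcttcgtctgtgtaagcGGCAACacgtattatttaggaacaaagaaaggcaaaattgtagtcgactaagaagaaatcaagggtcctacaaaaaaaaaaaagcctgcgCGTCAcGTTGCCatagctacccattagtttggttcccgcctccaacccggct
Ropn1l: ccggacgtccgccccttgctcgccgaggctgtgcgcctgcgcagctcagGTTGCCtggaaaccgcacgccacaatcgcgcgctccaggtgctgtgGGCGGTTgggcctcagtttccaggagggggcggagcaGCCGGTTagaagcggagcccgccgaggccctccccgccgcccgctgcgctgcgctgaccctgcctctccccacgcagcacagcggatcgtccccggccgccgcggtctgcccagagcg

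Spag6 and Iqcg held the RFX letters at 2 places each within their 250 bases, and Drc1 and Ropn1l at 1. Ldhc held none of the RFX letters, and it had the MYB letters at 2 places and the cAMP response element core at 1. The promoter windows of the other markers Sycp3 and Gfra1 held none of the 7 motifs searched, and that of Crisp2 held the MYB letters AACAGAC.

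Genes of early meiotic prophase were mostly higher in Spc. Of 26 members tested, 17 rose and 1 fell (19 and 3 without USg 2), or 65.4% higher, with a median log2 fold change of 1.62. Sycp2, the partner of Sycp3 in the lateral element, was at 112 and 43.8 CPM in USg and 1251 and 1358 CPM in Spc (4.08 ± 0.52, adjusted p = 0.00341). Hormad1, which marks chromosome axes that have not yet synapsed, stood at 65.2 and 23.1 CPM in USg and 482 and 414 in Spc (3.36 ± 0.54, adjusted p = 0.00628). The recombinase gene Dmc1 had 35.9 and 30.3 CPM in USg against 235 and 269.6 CPM in Spc (2.93 ± 0.30, adjusted p = 0.0019). These 3 genes were already present in both USg libraries, at a lower level than in either Spc library. Meiob, a single-strand DNA binding protein of recombination, rose from 15.4 and 5.78 to 98 and 97 CPM (3.26 ± 0.51), and the meiotic cohesin gene Rec8 rose by 2.31 ± 0.37 (adjusted p = 0.00631). Sycp1, the transverse filament gene, had 543 and 114 CPM in USg, where the replicates differed widely, and 1366 and 1726 CPM in Spc, and missed the threshold (2.24 ± 0.70, adjusted p = 0.0503). It passed with any single library left out, with a log2 fold change of 3.77 without USg 1 and 1.51 without USg 2, and also with DESeq2 and with limma-voom. The member that fell was Tex15, a gene needed for repair of meiotic breaks and for silencing of transposons, at 2540 and 1839 CPM in USg and 388 and 475 CPM in Spc (-2.34 ± 0.32, adjusted p = 0.00396).

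The crossover and repair list did not move one way. Of its 31 members 6 rose and 5 fell (11 and 11 without USg 1, 12 and 10 without USg 2, 4 and 2 without Spc 1, 4 and 1 without Spc 2), close to the shares of all genes, and the median was -0.21. The members that rose included genes of meiotic recombination. Cntd1, which brings crossover sites to completion, stood at 8.87 and 10.3 CPM in USg and 228 and 261 CPM in Spc (4.66 ± 0.32, adjusted p = 0.00118). Mcmdc2, a relative of the replicative helicase needed for synapsis, was at 11.6 and 5.08 CPM in USg and 164 and 194 in Spc (4.49 ± 0.48), and the meiotic mismatch repair homologue Msh5 at 4.63 and 6.66 CPM in USg and 77.2 and 64.5 in Spc (3.61 ± 0.37, adjusted p = 0.00195). Mdc1, which spreads the damage mark over the sex chromosomes, rose from 62.1 and 108 to 503 and 502 CPM (2.56 ± 0.36). Among those that fell was the checkpoint kinase Chek2, at 83.7 and 88.5 CPM in USg and 13.1 and 15.1 CPM in Spc (-2.61 ± 0.31, adjusted p = 0.00287). The groups did not overlap for any of these 5 genes, a trait shared by 73.2% of all genes tested.

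Among genes typical of pachytene and diplotene spermatocytes more rose than fell. Of 45 tested members, 24 rose and 5 fell (30 and 9 without USg 1, 29 and 9 without USg 2), with a median of 1.51. Hist1h1t, the testis linker histone, had 11.6 and 13.8 CPM in USg and 526 and 681 CPM in Spc (5.56 ± 0.35, adjusted p = 0.00114). Adam3a, a sperm surface protein gene, stood at 3.47 and 1.23 CPM in USg and 182 and 225 in Spc (6.59 ± 0.54, adjusted p = 0.00138). Ybx2, which packages stored messenger RNA in germ cells, was at 38.2 and 93 CPM in USg and 1518 and 1646 CPM in Spc (4.58 ± 0.51, adjusted p = 0.00236). All 3 were low in both USg libraries and far higher in each Spc library. Clgn, a chaperone for sperm surface proteins, rose from 33.2 and 27.7 to 448 and 484 CPM (3.94 ± 0.30), and the chaperone gene Hspa2 from 62.1 and 152 to 1509 and 1322 CPM (3.72 ± 0.49, adjusted p = 0.00388). Mybl1, which encodes the transcription factor A-MYB of pachytene cells, went from 29.3 and 5.43 to 244 and 263 CPM (3.93 ± 0.76, and 5.54 without USg 1, adjusted p = 0.0116). The 5 members that fell included genes that also act in mitosis. Ccnb1, cyclin B1, was at 280.3 and 316 CPM in USg and 62.2 and 65.1 CPM in Spc (-2.23 ± 0.27), and the mitotic kinase Plk1 at 128 and 257 CPM in USg and 36 and 35.5 in Spc (-2.43 ± 0.41, adjusted p = 0.0075). Tdrd5, a Tudor domain gene of the piRNA pathway, fell from 1009 and 548 to 142 and 144 CPM (-2.44 ± 0.37, adjusted p = 0.00555).

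Some spermatid genes rose, and others were at or near 0 in every library. Of 40 round spermatid genes in the table only 18 had enough counts to test, of which 9 rose and 3 fell (9 and 1 without Spc 2). Of 35 elongating spermatid genes 19 were tested, 15 rose and 2 fell, with a median of 3.04. Cetn1, a centrin of male germ cells, stood at 0 and 0.350 CPM in USg and 45.4 and 44.5 CPM in Spc, a ratio of 187 (95% interval 51.4 to 1547). Actl7b, an actin-like protein of spermatids, had 0 and 0.701 CPM in USg and 18.1 and 26.6 in Spc (5.52 ± 0.74, and 9.54 without USg 2, adjusted p = 0.00394). Dkkl1, an acrosomal protein gene, was at 14.3 and 32.9 CPM in USg and 715 and 765 CPM in Spc (4.94 ± 0.48, adjusted p = 0.00179). The protamine genes Prm1 and Prm2 and the spermatid genes Tnp2, Acrv1 and Odf1 were at or near 0 in all 4 libraries. Prm1, the first protamine, had 1.16 and 0 CPM in USg and 0.193 and 0 CPM in Spc, and Prm2 had no count in any library, which allows at most 0.525 to 1.16 CPM by library at 3 counts. Tnp2 was at 0 and 0 CPM in USg and 0.193 and 0.213 in Spc, Acrv1 at 0 and 0.350 CPM in USg and 0.193 and 0.213 in Spc and Odf1 at 0 and 0.350 CPM in USg and 1.54 and 1.28 in Spc, none of them tested. Tnp1, which encodes a transition protein, was lower in Spc, at 1.93 and 15.9 CPM in USg and 0.962 and 0.426 CPM in Spc (-3.70 ± 1.07, adjusted p = 0.0391), with most of its counts in USg 2. Spaca1, an acrosome membrane gene of round spermatids, was also lower, at 50.9 and 44.7 CPM in USg and 9.62 and 10.6 in Spc (-2.23 ± 0.32, adjusted p = 0.00478). The call of Tnp1 was lost with limma-voom (adjusted p = 0.0842) and without Spc 2 (0.0653), and that of Spaca1 without Spc 1 (adjusted p = 0.0697) and Spc 2 (0.0569).

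**Figure D2:**
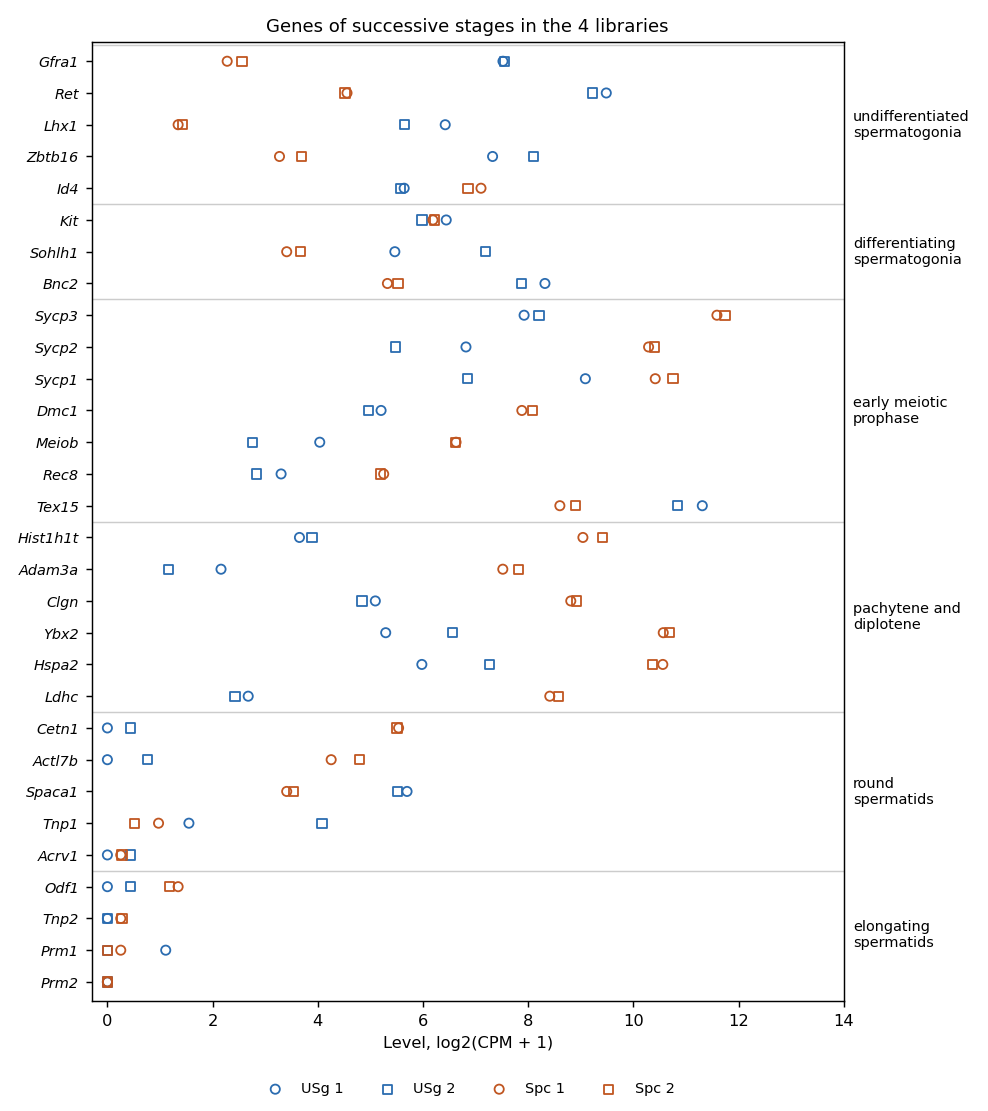
The level of 30 genes of successive stages is plotted as log2(CPM + 1) for each library (circles for library 1, squares for library 2, colours for USg and Spc). The Spc points lie to the right of the USg points for most meiotic and pachytene genes, to the left for most spermatogonial genes, and Prm1, Prm2 and Tnp2 lie near 0 in all 4 libraries.

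Genes of the axoneme and flagellum, the motile core of the sperm tail, rose in large number. Of 54 members tested 40 rose (74.1%) and 0 fell (48 and 3 without USg 2, 26 and 0 without Spc 2), with a median log2 fold change of 1.91. Spag6, of the central microtubule pair, was at 2.31 and 1.05 CPM in USg and 162 and 163 CPM in Spc (6.71 ± 0.46, adjusted p = 0.00116). Drc1, of the regulatory complex that links neighbouring microtubule doublets, stood at 4.63 and 2.80 CPM in USg and 169 and 194 in Spc (5.67 ± 0.40, adjusted p = 0.00118), and Iqcg, of the same complex, at 2.31 and 1.05 CPM in USg and 37.5 and 39 in Spc (4.62 ± 0.49, adjusted p = 0.00209). Ropn1l, a binding partner of kinase anchoring proteins in the tail, had 13.1 and 12.3 CPM in USg and 294 and 308 CPM in Spc (4.57 ± 0.31, adjusted p = 0.00114). Both Spc libraries stood far above both USg libraries for these 4 genes. Dnaaf1, which assembles dynein arms in the cytoplasm, rose from 9.25 and 14.4 to 474 and 423 CPM (5.22 ± 0.37), and the inner arm heavy chain gene Dnah1 rose by 3.41 ± 0.29 (adjusted p = 0.00149). Smaller changes were measured for the outer dense fibre gene Odf2 (1.89 ± 0.27, adjusted p = 0.00464) and the intraflagellar transport gene Ift20 (2.10 ± 0.30, adjusted p = 0.00453).

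The RFX letters were counted in the promoters of the axoneme list. The 250 bases upstream were given for 42 of its members, and 14 of them (33.3%) held GTTGCC or its reverse, against 9.9% of all 27457 promoters of the RefSeq table, 12.1% of those of the genes higher in Spc and 9.19% of those of the genes lower in Spc. Of the 14 genes 11 rose, a share near that of the whole axoneme list, in which 40 of 54 (74.1%) rose. The 11 included the 4 printed above and had log2 fold changes of 1.12 for Nme7 to 6.71 for Spag6. The other genes of the 14 were Ropn1 (1.76), Gas8 (0.60) and Ift27 (-0.09), not past the threshold. Ropn1 passed without USg 2 (6.52, adjusted p = 0.0138), Gas8 without USg 2 (1.16, adjusted p = 0.00426) and Ift27, with opposite signs, without USg 1 (-0.74, adjusted p = 0.00461) and without USg 2 (1.23, adjusted p = 6.82e-04). The MYB letters AACNGNC were in 47.6% of the axoneme promoters and in 44.4% (16 of 36) of the pachytene and diplotene promoters, against 28.2% of all, 32.5% of the genes higher and 25.4% of the genes lower in Spc. They were in 38.1% of the promoters of early meiotic prophase genes and in 34.6% of those of undifferentiated spermatogonia genes. The cAMP response element core was in 21.4% of the axoneme promoters and 25% of the pachytene and diplotene promoters. Its share was 19% of all promoters, 25.3% of the genes higher and 21.6% of the genes lower. In the cholesterol synthesis list the core was in 50% (11 of 22). The shares given here are picked from those of all 7 motifs in these lists. Motifs this short also occur by their letters alone, and binding of RFX or MYB factors was not measured. Rfx2, which encodes a factor of the RFX family, was itself at 38.2 and 88.1 CPM in USg and 282 and 256 CPM in Spc (2.08 ± 0.44, adjusted p = 0.015). Nme7 and Dnai2 were among the members whose call was lost: Nme7 without Spc 1 (adjusted p = 0.26) and Spc 2 (0.326) and Dnai2 without Spc 1 (0.273) and Spc 2 (0.119).

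Some genes of the acrosome and of sperm ion channels rose as well. In the acrosome and egg binding list 24 of 39 genes were tested, 14 rose and 1 fell (18 and 3 without USg 1), with a median of 2.06. Adam5, a relative of the fertilins, was at 1.54 and 0.876 CPM in USg and 126 and 128 CPM in Spc (6.79 ± 0.43, adjusted p = 0.00114), and Adam32 at 4.63 and 3.50 CPM in USg and 127 and 154 in Spc (5.14 ± 0.37). Spesp1, of the equatorial segment of the sperm head, rose by 3.68 ± 0.34 (adjusted p = 0.00167). In the list of sperm ion channels and signalling 9 of 26 rose and 2 fell (12 and 7 without USg 1, 9 and 6 without USg 2). Catsperg1, an auxiliary subunit of the CatSper calcium channel, stood at 4.63 and 3.50 CPM in USg and 335 and 372 CPM in Spc (6.47 ± 0.36, adjusted p = 0.00114). The sperm sodium-proton exchanger Slc9c1 rose by 5.66 ± 0.56 and Pkdrej, a polycystin family gene of sperm, by 4.12 ± 0.41.

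Regulators of transcription moved in both directions. Of 38 members 11 rose and 7 fell (13 and 11 without USg 1, 14 and 16 without USg 2, 8 and 4 without Spc 2), with a median of -0.10. Kctd19, needed to complete meiosis in mice, stood at 3.47 and 2.80 CPM in USg and 299.9 and 300.5 CPM in Spc (6.60 ± 0.36, adjusted p = 0.00114). Gtf2a1l, the germ cell form of the general factor TFIIA, was at 1.54 and 0.701 CPM in USg and 73.1 and 95.3 in Spc (6.35 ± 0.50, adjusted p = 0.00126). Crem, whose product drives spermatid genes through cAMP response elements, had 62.5 and 53.2 CPM in USg and 234 and 248 CPM in Spc (2.06 ± 0.28, adjusted p = 0.00403). For all 3 the lowest Spc library was above the highest USg library, and the groups did not overlap for 73.2% of all genes tested. The homeobox gene Rhox10, of the X-linked reproductive homeobox cluster, fell from 48.2 and 87.6 to 2.69 and 2.13 CPM (-4.80 ± 0.48, adjusted p = 0.00183), and E2f1, a driver of entry into S phase, fell by 3.42 on the log2 scale (adjusted p = 0.00306).

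Genes that store, repress or activate messenger RNA in germ cells changed without a common direction. In this list 11 of 34 rose and 7 fell (14 and 17 without USg 2, 5 and 3 without Spc 1, 6 and 3 without Spc 2). Pabpc2, a poly(A)-binding protein gene, was at 1.54 and 0.175 CPM in USg and 30.0 and 43 CPM in Spc (5.75 ± 0.76, 7.52 without USg 1 and 4.54 without USg 2, adjusted p = 0.00386), and the cytoplasmic polyadenylation factor gene Cpeb4 at 23.9 and 14.2 CPM in USg and 97.4 and 116 in Spc (2.50 ± 0.38). In the other direction, Nanos2, the translational repressor that maintains spermatogonial stem cells, went from 18.5 and 22.9 to 1.16 and 0.638 CPM (-4.48 ± 0.50, adjusted p = 0.00241), and Igf2bp2 from 173 and 116 to 6.93 and 10.8 CPM (-4.02 ± 0.41). Of 22 piRNA pathway genes 3 rose and 6 fell (12 and 8 without USg 1, 5 and 10 without USg 2, 3 and 3 without Spc 1, 3 and 3 without Spc 2), with a median of -0.04. Tdrd6, a scaffold of the chromatoid body, rose from 17 and 8.06 to 421 and 462 CPM (5.18 ± 0.46, adjusted p = 0.00152). Piwil2, which is active from spermatogonia on, stood at 403 and 312 CPM in USg and 449 and 546 in Spc and missed the threshold (0.48 ± 0.28, adjusted p = 0.228), as did the germ cell helicase Ddx4 at 389 and 248 CPM in USg and 439 and 445 in Spc (0.47 ± 0.31, adjusted p = 0.271). Piwil2 passed without USg 1 (0.68, adjusted p = 0.00982), and Ddx4 without USg 1 (0.84, adjusted p = 0.00172).

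Many widely expressed genes have a copy expressed in germ cells, and 33 such pairs had both members in the table, 28 of them with both tested. The germ cell form was higher in Spc in 21 pairs and lower in 0, while the widely expressed form was higher in 8 and lower in 5. Of all genes tested 19.1% were higher and 18.4% lower, so falls of the widely expressed form were about as frequent as over all genes. In 4 pairs the germ cell form rose and the widely expressed form fell, in 12 the germ cell form rose and the other did not pass the threshold, and in 5 both rose. The marker Ldhc was counted once with each of its general forms, which both rose, so the 21 pairs held 20 distinct germ cell forms. The proteasome subunit Psma8 stood at 7.33 and 2.80 CPM in USg and 134 and 129 CPM in Spc (4.79 ± 0.51), and its general form Psma7 at 380.1 and 830.2 CPM in USg and 174 and 163 in Spc (-1.84 ± 0.42, and -1.17 without USg 2, adjusted p = 0.0189). Rec8 stood at 8.87 and 6.13 CPM in USg and 37.1 and 35.8 CPM in Spc, and the mitotic cohesin Rad21 at 1025 and 722 CPM in USg and 201 and 177 in Spc (-2.21 ± 0.31, adjusted p = 0.00436). The centromere kinase Aurkc went from 1.54 and 2.45 to 41.2 and 37.2 CPM (4.21 ± 0.42), and its relative Aurkb from 138 and 168 to 36.8 and 42.6 CPM (-1.95 ± 0.29, adjusted p = 0.00532). Calls were lost for Aurkb without Spc 1 (adjusted p = 0.093) and Spc 2 (0.0649) and Psma7 without Spc 1 (0.0607) and Spc 2 (0.0876). The testis bromodomain gene Brdt rose from 51.3 and 41.5 to 389.7 and 363 CPM (3.02 ± 0.29). Among genes of energy metabolism, the glycerol kinase copy Gk2 was at 2.31 and 1.58 CPM in USg and 208 and 258 in Spc (6.95 ± 0.41) and the phosphoglycerate kinase copy Pgk2 at 0.771 and 0.876 CPM in USg and 39.3 and 38.3 in Spc (5.49 ± 0.44, adjusted p = 0.00129). Several of these copies are retrogenes with sequences close to their parents, and how reads that match both were counted is not given in the sources used here, so the split within such pairs is uncertain.

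**Figure D3:**
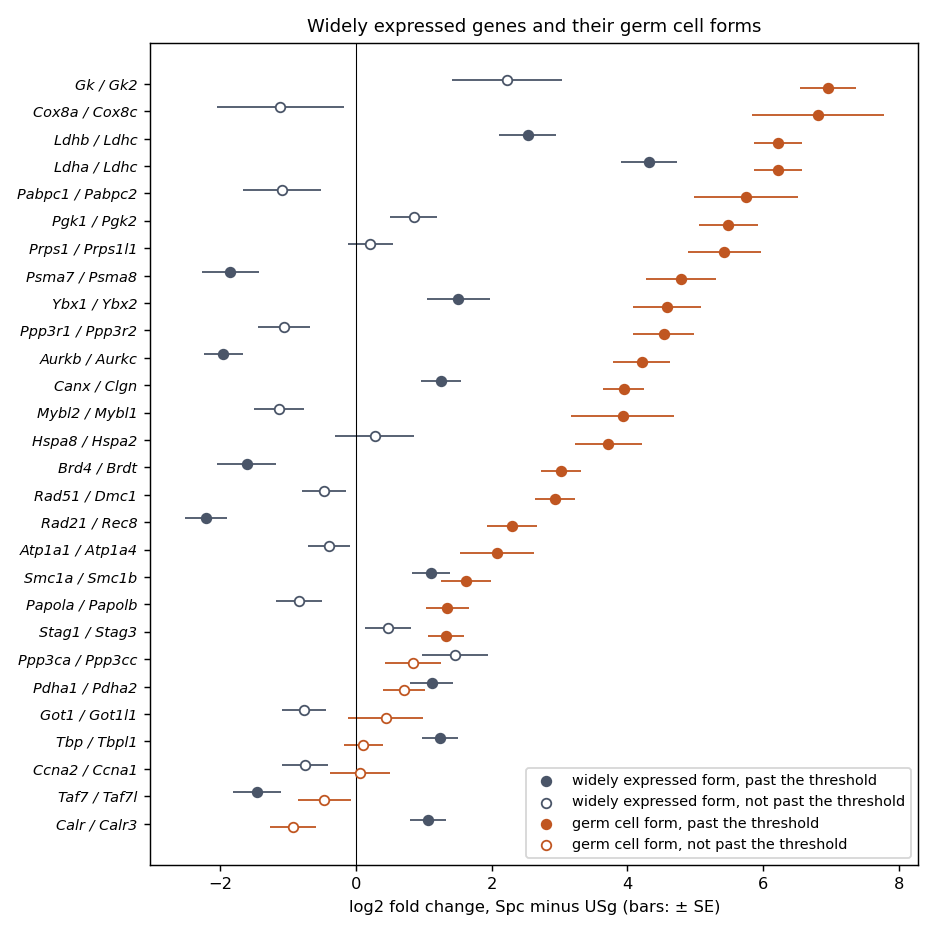
For each of the 28 pairs with both members tested, the log2 fold change of Spc over USg is drawn for the widely expressed form and for the germ cell form, with bars of ± 1 SE and filled points where the adjusted p was under 0.05. The germ cell forms lie at or to the right of 0 when filled (21 pairs), and the filled general forms lie on both sides (8 higher, 5 lower).

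The genes of undifferentiated spermatogonia formed the list with the lowest median, -3.51. Of 31 tested members 24 fell and 1 rose (4 and 24 without USg 1). Ret, the signalling receptor for GDNF, was at 716 and 595 CPM in USg and 22.5 and 21.9 CPM in Spc (-4.88 ± 0.31, adjusted p = 0.00114). Lhx1, a transcription factor gene that GDNF induces, stood at 84.8 and 49.4 CPM in USg and 1.54 and 1.70 in Spc (-5.34 ± 0.48), and the self-renewal factor gene Etv5 at 383 and 612 CPM in USg and 23.3 and 21.5 in Spc (-4.47 ± 0.37, adjusted p = 0.00144). Pou5f1, a pluripotency factor gene, had 36.6 and 37.3 CPM in USg and 0.577 and 1.49 CPM in Spc (-5.14 ± 0.52, adjusted p = 0.00185). All 4 still had counts in both Spc libraries, at a low level, and the value of Pou5f1 in Spc 1 is that of 3 counts. Id4, a marker of the stem cell fraction, was the member that rose, from 49 and 46.6 to 136 and 115 CPM (1.4 ± 0.28, adjusted p = 0.0131), and its call was lost without Spc 1 (adjusted p = 0.213) and Spc 2 (0.121).

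Some genes of the pathway on which the line depends fell. In the GDNF and FGF signalling list 17 of 35 fell and 3 rose (9 and 20 without USg 1, 7 and 20 without USg 2, 1 and 13 without Spc 1). The receptor genes Fgfr3, at 328 and 399.9 CPM in USg and 8.47 and 8.09 CPM in Spc (-5.45 ± 0.33, adjusted p = 0.00114), and Gfra2, at 114 and 118 CPM in USg and 2.69 and 1.92 in Spc (-5.63 ± 0.38), were among the lowest. The feedback inhibitors of ERK signalling Dusp6 (321 and 357 CPM in USg and 24.6 and 16.4 in Spc, -4.04 ± 0.35), Spred2 (174 and 148 CPM in USg and 10.0 and 10.6 in Spc, -3.96 ± 0.32) and Il17rd (65.9 and 104 CPM in USg and 3.08 and 2.34 in Spc, -4.95 ± 0.43) fell as well. Egr2, an immediate early factor gene, rose from 5.01 and 10.5 to 66.4 and 74.7 CPM (3.13 ± 0.43, adjusted p = 0.00425). Medium and stage differed together here, since the USg medium held GDNF and FGF and the Spc medium serum.

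Genes of differentiating spermatogonia, the step between the stages compared, were lower in part. Of 16 such genes 8 fell and 1 rose (2 and 13 without USg 2, 0 and 4 without Spc 2), with a median of -1.67. Sohlh1, a transcription factor gene of this step, stood at 43.2 and 144 CPM in USg and 9.62 and 11.7 CPM in Spc (-3.15 ± 0.62, and -2.02 without USg 2, adjusted p = 0.0123), and the cyclin gene Ccnd1 at 99.8 and 101 CPM in USg and 21.2 and 17.2 in Spc (-2.38 ± 0.30, adjusted p = 0.00353). Kit, the receptor that marks differentiating spermatogonia, had 86 and 62.2 CPM in USg and 72 and 73.2 CPM in Spc, a log2 fold change of -0.03 ± 0.30 that did not pass the threshold (adjusted p = 0.954). Stra8 was not analysed here.

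Receptors of other growth factors and cytokines were divided. Of 52 tested 11 rose and 12 fell (19 and 19 without USg 1, 6 and 7 without Spc 1, 6 and 6 without Spc 2), near the shares of all genes. The neuregulin co-receptor gene Erbb2 fell from 41.2 and 95.6 to 9.43 and 9.36 CPM (-2.87 ± 0.49, adjusted p = 0.00756), and the ephrin receptor gene Ephb2 from 28.1 and 45.9 to 2.89 and 4.89 CPM (-3.26 ± 0.47). Il6st, the shared receptor of the IL-6 cytokine family, rose from 132 and 116 to 727 and 747 CPM (2.57 ± 0.27, adjusted p = 0.00209), and the Wnt receptor gene Fzd1 from 1.54 and 4.73 to 42.5 and 38.3 CPM (3.56 ± 0.52, and 4.69 without USg 2). Pdgfra, a receptor of stromal cells, went from 95.6 and 68.5 to 405 and 384 CPM (2.27 ± 0.30, adjusted p = 0.00391). Myoid and stromal markers summed to 3521 and 2021 CPM in USg and 13980 and 14410 CPM in Spc, and their part in the receptor values was not tested.

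Among DNA replication genes more fell than rose. Of 50 members 23 fell and 2 rose, with a median of -1.04. The numbers that rose and fell depended strongly on the library left out. Both were larger without either USg library and smaller without either Spc library, as over all genes. They moved by more than the limit set above for printing, but are not printed for this list. The count of 23 falls is therefore not to be read as stable. The median was -0.96 without USg 1, -0.83 without USg 2, -1.03 without Spc 1 and -0.99 without Spc 2. Cdt1, which licenses replication origins, stood at 32 and 49.7 CPM in USg and 5.58 and 4.89 CPM in Spc (-2.96 ± 0.40, adjusted p = 0.00399). Mcm4, a subunit of the replicative helicase, was at 453 and 361 CPM in USg and 77 and 85.8 in Spc (-2.32 ± 0.29, adjusted p = 0.0032). In the meiotic cell cycle list 8 of 52 rose and 13 fell (11 and 23 without USg 1, 12 and 23 without USg 2, 6 and 5 without Spc 1, 6 and 5 without Spc 2). Those that rose included Fbxo43, the inhibitor of the anaphase promoting complex also called EMI2, at 0.771 and 4.03 CPM in USg and 71.6 and 61.5 CPM in Spc (4.60 ± 0.61, and 6.38 without USg 2, adjusted p = 0.00382). Cdkn2c, an inhibitor of the G1 kinases, rose from 1.16 and 0.525 to 16 and 15.1 CPM (4.32 ± 0.54), and Pkmyt1, an inhibitory kinase of CDK1, from 1.93 and 11.2 to 98.7 and 83 CPM (3.67 ± 0.69, and 5.54 without USg 2). A second inhibitor of G1 kinases, Cdkn2a, fell from 8.10 and 15.8 to 0.770 and 1.06 CPM (-3.70 ± 0.58, adjusted p = 0.006).

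Chromatin genes fell more often than they rose. In the list of chromatin and DNA methylation 17 of 45 fell and 5 rose (12 and 22 without USg 1, 10 and 23 without USg 2, 3 and 4 without Spc 1, 3 and 5 without Spc 2). Dnmt1, the maintenance DNA methyltransferase, was at 978 and 1228 CPM in USg and 234 and 254 CPM in Spc (-2.18 ± 0.28, adjusted p = 0.00363). Cbx2, a Polycomb protein gene, fell from 110.3 and 220.5 to 21.2 and 18.3 CPM (-3.07 ± 0.43), and Padi4, which converts histone arginines to citrulline, from 15 and 30.6 to 2.69 and 2.34 CPM (-3.18 ± 0.51). Morc2b, a germ cell gene needed for meiosis in mice, rose from 1.93 and 0.175 to 16.7 and 22.8 CPM (4.57 ± 0.83, 6.63 without USg 1 and 3.34 without USg 2, adjusted p = 0.00927). The demethylase gene Kdm4d stood at 0.386 and 0.175 CPM in USg and 18.5 and 18.1 CPM in Spc, a ratio of 75.9 (95% interval 20.7 to 632). Of 31 histone and histone chaperone genes 5 rose and 7 fell (8 and 12 without USg 1, 11 and 10 without USg 2, 3 and 1 without Spc 1, 4 and 0 without Spc 2). The variant histone gene H3f3b rose from 192 and 303 to 926 and 817 CPM (1.81 ± 0.33, adjusted p = 0.00923). Histone genes of a cluster share long stretches of sequence, and their counts are uncertain for that reason.

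Genes on chromosome X did not move as a block. Of 345 tested X genes 70 rose (20.3%) and 87 fell (25.2%), against 19% and 18.3% of 11430 autosomal genes, with medians of -0.17 and -0.03. With a library left out, the share of X genes that fell moved in the same direction as the share of all genes. It was above the share of all genes in each such fit, and the difference was not tested. By mean level, 39.5% of the 43 X genes under 5 CPM rose and 14% fell, against 16.8% and 15.6% of autosomal genes at that level. From 5 to 20 CPM 18.2% of X genes rose and 23.6% fell, from 20 to 100 CPM 15.8% and 28.6%, and at 100 CPM or more 20.3% and 28.8%. The difference between levels was not tested. X genes took 2.55% and 2.25% of the counts in USg and 2.18% and 2.3% in Spc. Usp26, a deubiquitinase gene of germ cells, was at 1304 and 753 CPM in USg and 248 and 256 CPM in Spc (-2.03 ± 0.35, adjusted p = 0.00809). Tsx, a testis-specific gene near the X inactivation centre, rose from 2.31 and 3.33 to 155 and 138 CPM (5.63 ± 0.38, adjusted p = 0.00114).

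Energy metabolism showed more rises than falls in glycolysis. Of 45 genes of glycolysis and pyruvate 18 rose and 4 fell (27 and 8 without USg 1, 27 and 7 without USg 2, 10 and 2 without Spc 1, 9 and 0 without Spc 2), with a median of 0.86. Slc16a3, a lactate transporter, stood at 0.771 and 0.525 CPM in USg and 47.7 and 28.3 CPM in Spc (5.90 ± 0.57, adjusted p = 0.00178). Slc2a8, a hexose transporter abundant in the testis, was at 0.771 and 4.90 CPM in USg and 48.9 and 52.8 in Spc (3.97 ± 0.65, and 5.99 without USg 2), and the mutase gene Pgam2 at 0 and 0.701 CPM in USg and 7.51 and 7.02 in Spc (3.90 ± 0.74, and 7.93 without USg 2). Hexokinase 2, Hk2, fell from 244 and 524 to 92 and 87.3 CPM (-2.10 ± 0.42, adjusted p = 0.0125), and its call was lost without Spc 2 (adjusted p = 0.0531). In the list of mitochondria and the respiratory chain 6 of 54 rose and 2 fell (14 and 24 without USg 1, 20 and 6 without USg 2, 2 and 1 without Spc 1, 3 and 0 without Spc 2). Cox8c, the testis form of a cytochrome oxidase subunit, rose from 0.386 and 5.78 to 224 and 580.4 CPM (6.80 ± 0.97, and 9.92 without USg 2, adjusted p = 0.00457). Cox6c, a general subunit of the same enzyme, went from 150.0 and 187 to 1078 and 973 CPM (2.60 ± 0.29), and Ppargc1a, a coactivator of mitochondrial genes, from 5.01 and 0.876 to 34.6 and 43 CPM (3.92 ± 0.73, and 5.43 without USg 1, adjusted p = 0.0102).

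Lipid metabolism held opposite patterns. Of 40 genes of polyunsaturated and testis lipid metabolism 16 rose and 4 fell (18 and 12 without USg 1, 22 and 11 without USg 2, 10 and 1 without Spc 1, 10 and 1 without Spc 2). Cers3, which makes the ceramides with very long polyunsaturated chains of male germ cells, stood at 2.70 and 1.23 CPM in USg and 78.1 and 81.9 CPM in Spc (5.46 ± 0.47, adjusted p = 0.00148). Fabp9, a lipid-binding protein gene of the testis, was at 25.4 and 36.1 CPM in USg and 987 and 1067 in Spc (5.05 ± 0.34, adjusted p = 0.00114), and Elovl2, which lengthens polyunsaturated fatty acids, at 4.63 and 1.75 CPM in USg and 77.2 and 69.8 in Spc (4.64 ± 0.51). G0s2, an inhibitor of fat breakdown, had 0 counts in both USg libraries and 56 and 51.3 CPM in Spc, at least 149-fold higher against a floor of 3 counts over the USg group. Another elongase gene, Elovl4, fell from 36.6 and 45 to 6.74 and 4.47 CPM (-2.86 ± 0.39, adjusted p = 0.00403). Cholesterol synthesis went the other way, with 14 of 32 genes lower and 0 higher (1 and 24 without USg 1, 4 and 19 without USg 2, 0 and 3 without Spc 1, 0 and 4 without Spc 2) and a median of -1.11. Srebf2, the regulator of the pathway, stood at 628 and 870.5 CPM in USg and 163 and 119 CPM in Spc (-2.41 ± 0.33, adjusted p = 0.00412). Stard4, a sterol carrier gene, fell from 49.4 and 58.3 to 9.81 and 9.36 CPM (-2.49 ± 0.32).

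The series title names glutathione, the pentose phosphate pathway and cysteine, and the genes of these pathways moved in both directions in this comparison. Of 52 glutathione genes 17 rose and 12 fell (25 and 19 without USg 1, 29 and 14 without USg 2, 14 and 5 without Spc 1, 14 and 4 without Spc 2), with a median of 0.35. Called rises included transferases, which attach glutathione to other molecules. Gstt3 stood at 2.31 and 5.61 CPM in USg and 324 and 377 CPM in Spc (6.36 ± 0.48, adjusted p = 0.00123), Gstm2 at 1.54 and 0.876 CPM in USg and 88.2 and 84.5 in Spc (6.24 ± 0.44) and the microsomal form Mgst1 at 9.64 and 6.66 CPM in USg and 146 and 159 in Spc (4.25 ± 0.35, adjusted p = 0.00144). Paralogs of this family may share reads, so single members are uncertain. Slc7a11, the cystine importer, rose from 6.94 and 3.15 to 53.1 and 52.4 CPM (3.46 ± 0.46, adjusted p = 0.00392). Gpx2, a glutathione peroxidase, fell from 30.1 and 83.9 to 4.04 and 2.98 CPM (-4.02 ± 0.61, adjusted p = 0.00543), and glutathione reductase, Gsr, from 168 and 165 to 40.2 and 36.8 CPM (-2.11 ± 0.28, adjusted p = 0.0037). The call of Gsr was lost without Spc 2 (adjusted p = 0.0638). The subunits of the ligase that starts glutathione synthesis were at 187 and 182 CPM in USg and 263 and 317 in Spc for Gclc (0.65 ± 0.27, adjusted p = 0.1) and 76 and 35.6 CPM in USg and 51.6 and 56.4 in Spc for Gclm (-0.04 ± 0.42, adjusted p = 0.953), and neither passed the threshold. Gclc passed without USg 1 (0.68, adjusted p = 0.00888) and without USg 2 (0.64, adjusted p = 0.00997), and Gclm without USg 1 (0.61, adjusted p = 0.022).

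In the pentose phosphate pathway, which supplies the NADPH for glutathione reduction, 6 of 19 genes rose and 1 fell (8 and 5 without USg 1, 9 and 4 without USg 2, 2 and 1 without Spc 1, 2 and 0 without Spc 2). Prps1l1, the testis form of phosphoribosyl pyrophosphate synthetase, was at 0.386 and 0.350 CPM in USg and 15.8 and 17.7 in Spc, a ratio of 46.1 (95% interval 15.5 to 226). Transketolase, Tkt, did not pass the threshold at 89.8 and 109.6 CPM in USg and 139 and 161 in Spc (0.59 ± 0.28, adjusted p = 0.146), and passed without USg 2 (0.74, adjusted p = 0.00398). In the methionine cycle and transsulfuration 2 of 20 rose and 5 fell (5 and 6 without USg 1, 3 and 11 without USg 2, 1 and 0 without Spc 1, 1 and 0 without Spc 2). Cbs, the first enzyme from homocysteine towards cysteine, was at 6.17 and 10.5 CPM in USg and 0.962 and 1.70 CPM in Spc (-2.67 ± 0.55, adjusted p = 0.0138), and this call was lost without Spc 1 (adjusted p = 0.157) and Spc 2 (0.0649). Cth, the enzyme after it, had 5.01 and 3.50 CPM in USg and 3.85 and 4.47 in Spc (0.00 ± 0.42, adjusted p = 0.997). Of 26 serine, glycine and folate genes 3 rose and 8 fell (5 and 14 without USg 1, 7 and 9 without USg 2, 2 and 2 without Spc 1, 2 and 2 without Spc 2). Gldc, which cleaves glycine in mitochondria, fell from 14.7 and 28.6 to 0 and 1.92 CPM (-4.52 ± 1.01, and -3.46 without Spc 1 and -9.61 without Spc 2, adjusted p = 0.0179).

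**Figure D4:**
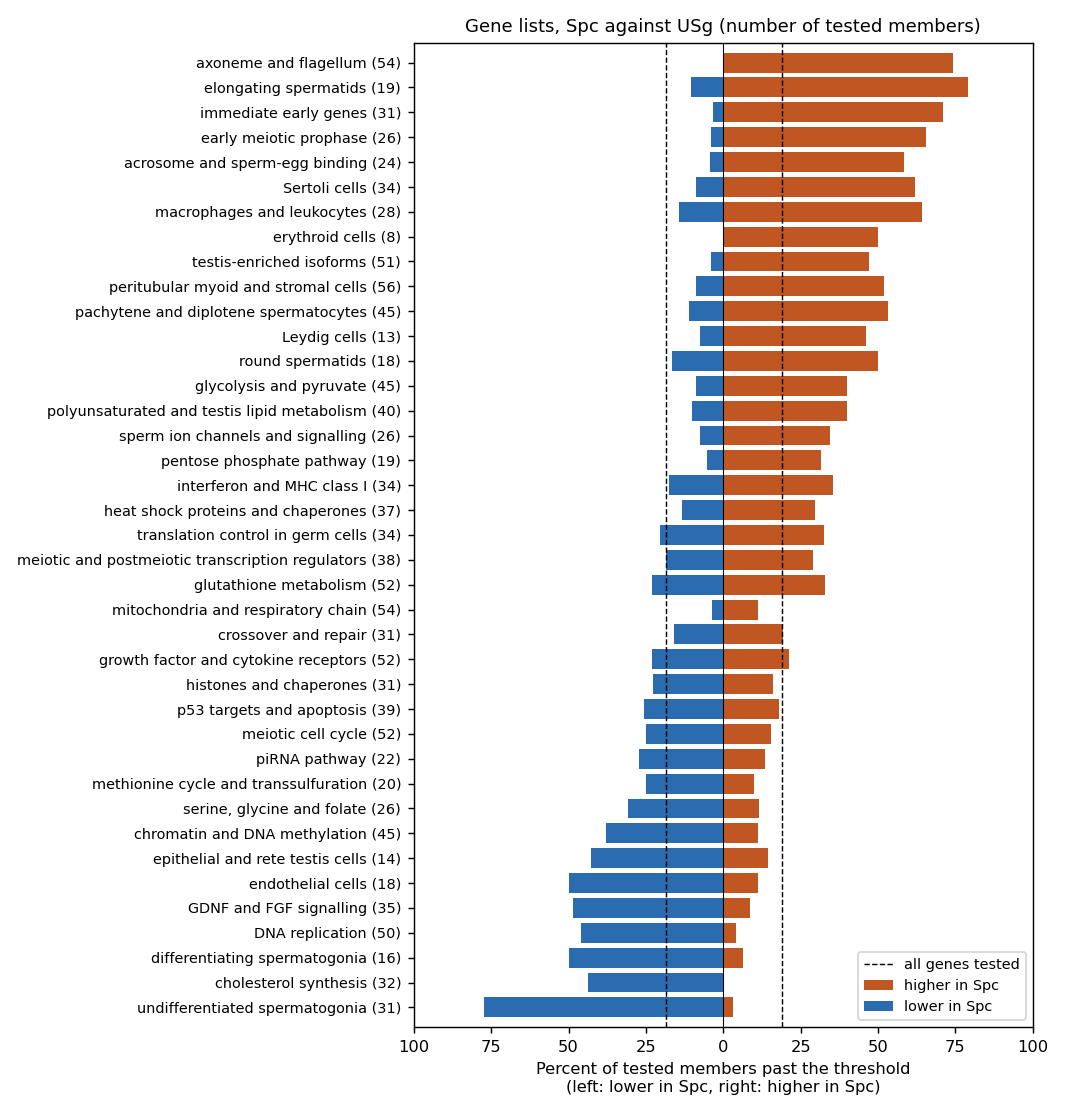
For each of the 39 gene lists, the bar to the right is the percent of tested members higher in Spc and the bar to the left the percent lower, with the number tested in parentheses and dashed lines at the 19.1% and 18.4% of all genes. Axoneme, elongating spermatid, immediate early and early meiotic lists lie furthest to the right and undifferentiated spermatogonia furthest to the left.

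Markers of somatic testis cells were present in Spc and moved with the group. Of 34 Sertoli cell genes 21 rose and 3 fell (18 and 1 without Spc 1, 17 and 0 without Spc 2), and the list summed to 1337 and 1126 CPM in USg and 4665 and 4395 CPM in Spc. Gata4, a transcription factor gene of Sertoli and Leydig cells, was at 1.93 and 2.63 CPM in USg and 68.1 and 66.2 CPM in Spc (4.82 ± 0.38, adjusted p = 0.00126), and Tf, the transferrin that Sertoli cells secrete, at 4.63 and 9.28 CPM in USg and 569 and 575 in Spc (6.30 ± 0.44, adjusted p = 0.00118). Other defining genes did not move with them. Sox9 stood at 82.1 and 30.1 CPM in USg and 49.1 and 44 in Spc (-0.26 ± 0.50, adjusted p = 0.71), passing in opposite directions without USg 1 (0.63, adjusted p = 0.0199) and without USg 2 (-0.81, adjusted p = 0.00302), and Amh had 1.16 and 1.4 CPM in USg and 4.43 and 1.06 in Spc and was not tested. In the myoid and stromal list, with the sums given beside the receptors, 29 of 56 rose and 5 fell (35 and 8 without USg 2, 27 and 1 without Spc 1, 27 and 1 without Spc 2). Dcn, decorin of the connective tissue matrix, was at 2.31 and 2.10 CPM in USg and 525 and 545 CPM in Spc (7.92 ± 0.36, adjusted p = 0.00114), and the smooth muscle gene Acta2 at 8.87 and 2.45 CPM in USg and 41.6 and 60.9 in Spc (3.29 ± 0.63, and 4.37 without USg 1, adjusted p = 0.0112). Of 13 Leydig cell genes 6 rose and 1 fell, summing to 304.9 and 404.1 CPM in USg and 796.9 and 744.3 CPM in Spc. Star, the cholesterol transfer gene of steroid synthesis, was at 0.771 and 1.05 CPM in USg and 155 and 165 CPM in Spc (7.35 ± 0.41), whereas the Leydig genes Insl3 (0 and 0 CPM in USg and 0.193 and 0 in Spc), Lhcgr (0.771 and 0.525 CPM in USg and 0.770 and 0.638 in Spc) and Cyp17a1 (0 and 0.525 CPM in USg and 1.16 and 0.213 in Spc) were near 0 throughout. The part of somatic cells in the other results was not tested.

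Blood and vessel markers gave a mixed picture. Macrophage and leukocyte genes summed to 192 and 162.2 CPM in USg and 1909 and 1773 CPM in Spc, with 28 of 45 genes tested, 18 higher and 4 lower (10 and 3 without Spc 1, 11 and 3 without Spc 2). Their median was 2.90, and 1.4 over the 44 members tested with no filter. Most of that sum in Spc was the chemokine gene Ccl2, at 8.48 and 3.50 CPM in USg and 1660 and 1517 CPM in Spc (8.13 ± 0.55, adjusted p = 0.00114), a gene that stromal cells also express. Cd68, of macrophages, was at 2.31 and 3.85 CPM in USg and 18.9 and 26.6 in Spc (2.81 ± 0.45, adjusted p = 0.00655), and Csf1r, the macrophage growth factor receptor, stood at 5.78 and 1.93 CPM in USg and 7.12 and 10.4 in Spc, not past the threshold (1.29 ± 0.61, adjusted p = 0.143) but past it without USg 1 (2.17, adjusted p = 9.55e-04). Of 18 endothelial genes 9 fell and 2 rose (1 and 4 without Spc 2), with sums of 803.5 and 786.3 CPM in USg and 397 and 405.2 CPM in Spc. Pecam1, an adhesion gene of endothelium, fell from 109 and 72.9 to 6.35 and 8.09 CPM (-3.65 ± 0.39, adjusted p = 0.0021). Erythroid genes summed to 289.1 and 193.2 CPM in USg and 612.2 and 579.5 CPM in Spc, and 4 of 8 rose and 0 fell. Epithelial and rete testis genes summed to 804.2 and 786.8 CPM in USg and 501 and 463.7 CPM in Spc, with 2 of 14 higher and 6 lower (4 and 8 without USg 1).

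**Figure D5:**
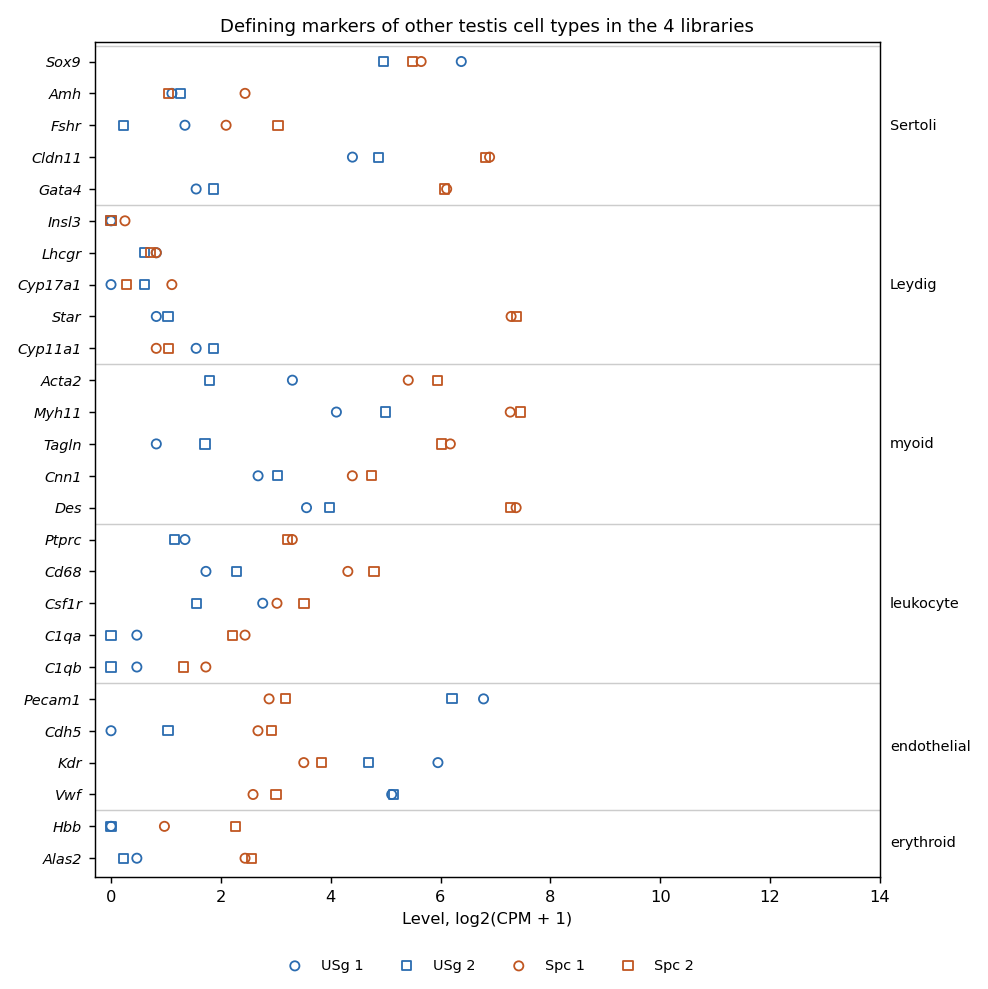
The level of defining markers of other testis and blood cells is plotted as log2(CPM + 1) for each library (circles for library 1, squares for library 2, colours for USg and Spc). Markers such as Gata4, Star and Tagln lie to the right in both Spc libraries, Pecam1 to the left, and Insl3, Lhcgr and Cyp17a1 near 0 in all 4.

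Immediate early genes, which respond fast to serum and stress, were mostly higher in Spc. Of 31 members 22 rose and 1 fell (22 and 3 without USg 1), with a median of 2.51. Fos stood at 8.87 and 32.8 CPM in USg and 214 and 182 CPM in Spc (3.21 ± 0.60, and 4.48 without USg 2, adjusted p = 0.0104), Nr4a1 at 10.0 and 12.8 CPM in USg and 322 and 238 in Spc (4.60 ± 0.36) and Myc at 2.70 and 4.03 CPM in USg and 47.5 and 35.5 in Spc (3.57 ± 0.41, adjusted p = 0.00271). Ptgs2, the inducible prostaglandin synthase, rose from 13.5 and 4.38 to 322 and 317 CPM (5.24 ± 0.58). Of 34 interferon and MHC class I genes 12 rose and 6 fell (18 and 10 without USg 1, 11 and 2 without Spc 2). B2m, the light chain of MHC class I, was at 228 and 477 CPM in USg and 6185 and 6040 CPM in Spc (4.12 ± 0.45, adjusted p = 0.00233), and the interferon factor gene Irf7 at 2.31 and 1.75 CPM in USg and 145 and 126 in Spc (6.09 ± 0.39, adjusted p = 0.00114). RT1-CE5, a rat class I heavy chain gene, fell from 33.2 and 36.3 to 2.31 and 2.34 CPM (-3.89 ± 0.38), and Irf1 from 189 and 241 to 36.2 and 37 CPM (-2.56 ± 0.30, adjusted p = 0.0027). Class I heavy chain genes are near-identical copies, so their split is uncertain. The markers of stromal cells and of leukocytes were higher in the same libraries, and their part in these lists was not tested.

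Apoptosis and chaperone genes changed in both directions. Of 39 p53 targets and apoptosis genes 7 rose and 10 fell (9 and 18 without USg 1, 1 and 4 without Spc 1, 1 and 3 without Spc 2). Bid, which links death receptors to mitochondria, fell from 40.5 and 47.3 to 5.97 and 5.11 CPM (-2.98 ± 0.35, adjusted p = 0.00277). Bcl2a1, a survival gene of the Bcl-2 family, had 0 counts in USg and 5.20 and 6.17 CPM in Spc, at least 15.7-fold higher. In the chaperone list 11 of 37 rose and 5 fell (16 and 9 without USg 1, 13 and 11 without USg 2, 8 and 2 without Spc 1, 8 and 2 without Spc 2). Hspa4l, a chaperone gene abundant in the testis, stood at 44.3 and 29.9 CPM in USg and 502 and 565 CPM in Spc (3.85 ± 0.34, adjusted p = 0.00152), and the testis small heat shock gene Hspb9 at 0.386 and 1.4 CPM in USg and 48.9 and 40.2 in Spc (5.39 ± 0.54, and 6.75 without USg 2). The related but general Hsph1 fell from 364 and 196 to 59.3 and 62.8 CPM (-2.20 ± 0.38, adjusted p = 0.00796).

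Among the 15 genes with the highest fold change, germ cell genes stood beside genes of stroma and inflammation. Besides Crisp2, germ cell genes with few or no USg counts were Cmtm2a at 0.386 and 0 CPM in USg and 227 and 207 CPM in Spc, a ratio of 1803 (95% interval 323 to 71260), and Spata4 at 0 and 0.350 CPM in USg and 123 and 102 in Spc, a ratio of 469 (95% interval 129 to 3875). Cmtm1, of the same family as Cmtm2a, had 0 counts in USg and 38.7 and 49.2 CPM in Spc (at least 121-fold higher). The cytokine gene Il6 was at 0 and 0.175 CPM in USg and 75.1 and 124 CPM in Spc, a ratio of 815 (95% interval 146 to 32220), and the chemokine gene Cxcl2 went from 0 counts to 37.5 and 34.7 CPM (at least 100.1-fold higher). Ednrb, an endothelin receptor gene, rose from 0.771 and 0.525 to 275 and 318 CPM (8.86 ± 0.43, adjusted p = 0.00114). At the other end, Tcl1a, a coactivator of AKT kinase, stood at 112 and 132 CPM in USg and 0.193 and 0.426 CPM in Spc, a ratio of USg to Spc of 416 (95% interval 142 to 2020). The lowest fitted fold changes included Igsf21 (69 and 184 CPM in USg and 1.35 and 1.06 in Spc, -6.68 ± 0.68), Meox1 (98.7 and 106 CPM in USg and 0.770 and 1.28 in Spc, -6.62 ± 0.43) and Tfap2c, a factor of early germ cells (41.2 and 113 CPM in USg and 0.770 and 0.851 in Spc, -6.54 ± 0.71). The transcription factor gene Lhx8 fell by 5.83 on the log2 scale, and Sox8 fell by 5.77.

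Spp1 and Hist3h2a, both among the most abundant genes, differed widely between replicate libraries, Spp1 in USg and Hist3h2a in both groups. Spp1, the osteopontin gene, was at 796 and 68.1 CPM in USg and 2753 and 2444 CPM in Spc and missed the threshold (2.59 ± 1.01, adjusted p = 0.0908), and its USg libraries lay far apart. It passed with any single library left out, with a log2 fold change of 5.26 without USg 1 and 1.71 without USg 2. Hist3h2a, a histone gene among the most abundant of both groups, had 393 and 7165 CPM in USg and 9176 and 2137 CPM in Spc, uneven within each group (0.58 ± 1.24, adjusted p = 0.733), and it passed without USg 2 (3.85, adjusted p = 4.66e-05).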

How the data were processed

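RNA of USg and Spc was extracted with the RNAqueous kit per the labels' protocols. The authors deposited raw counts of reads for each gene symbol, and these are whole numbers whose totals differ between libraries, without normalization. The submitters' processing notes name STAR 2.5.3a, featureCounts, Subread 1.4.6 and edgeR 3.2.4 and the builds rn6 and rn5, without roles. Which of them made the counts, with which annotation and strand setting, is not given in the sources, so overlapping, antisense and near-identical genes are uncertain.

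Rn45s and Rn18s were left out before library sizes were taken. TMM factors and the filterByExpr rule (minimum count 10, minimum total count 15) were followed by glmQLFit and glmQLFTest of edgeR 4.0.16 (limma 3.58.1, R 4.3.3) on the 4 libraries, with 2 residual degrees of freedom, two-sided, and Benjamini-Hochberg values over 11956 genes. The SE was the size of the log2 fold change divided by the root of F. Levels are TMM-scaled CPM, in which 1 count is 0.386, 0.175, 0.192 and 0.213 CPM in USg 1, USg 2, Spc 1 and Spc 2. A group at 0 counts was set to a floor of 3 counts for a bound on the fold, and for a group at 1 to 3 counts a ratio is given with an exact binomial 95% interval. Both cover counting error only. Symbols were matched to RefSeq of GRCr8 for chromosome membership (14450 current and 1913 older names, 16358 with a chromosome).

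The members, the 39 gene lists, the pairs and the motifs were chosen with earlier results of these data known. Genes named are the 4 markers, genes among the 15 highest and 15 lowest fold changes (at least 20 CPM in the higher group), the 10 most abundant of each group, and list or pair members, those past the threshold with at least 5 CPM in order of fold change plus others of background interest. Some genes that this rule would name are not reported here. When tested on simulated data (11664 genes, means and sizes of these libraries), the fit recovered 0% of 67 genes changed 2-fold, 37.3% of 67 changed 4-fold and 90.9% of 66 changed 8-fold, with 6 false calls among 91. A far smaller share of genes was changed there than the 37.5% called in the real libraries. The Benjamini-Hochberg adjustment depends on that share, so these recoveries do not carry over to the real fit. The alternatives were scaling by RLE, by total count and by upper quartile, no filter or one of 5 CPM, limma-voom, edgeR's exact test, DESeq2 1.42.0, a replicate block, a test against a 2-fold change, thinned counts, ribosomal RNA genes kept, all 6 RNA libraries and each library left out. The DSg libraries and the Foxa2 immunoprecipitation were not analysed here.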

Additional observations from a re-analysis of the deposited data

How the results depend on the processing

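Main values were 2289 genes higher, 2197 lower and 25.2% of tested X genes lower. With a library left out these ranged from 1205 to 4097, from 667 to 4042 and from 8.31% to 38.6%, and fewer replicates stand behind those fits. The share of X genes moved in the same direction as the share of all genes when a library was left out. A test against a 2-fold change gave 1297 higher, 993 lower and 12.5% of X genes, and with no filter 15.5% of the then 511 tested X genes were lower. DESeq2 (2244 and 2116), limma-voom (2433 and 2146), the exact test of edgeR (2691 and 2612), the scalings, the filter of 5 CPM, thinned counts, ribosomal RNA genes kept and all 6 libraries (2184 and 2008) kept both counts within 1.5 times, and no scaling moved the median of all genes by more than 0.1. No gene named as higher or lower changed sign in any alternative, out of 152 tested. Of these, 7 lost the call without Spc 1, 10 without Spc 2, 6 in the test against a 2-fold change and 1 with limma-voom. The cause was not tested.

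Values near 0 changed sign. Kit had 0.03 with no filter, 0.009 with limma-voom, 0.022 with thinned counts, 0.004 with all 6 libraries and -0.24 to 0.23 with a library left out. Gclm had 0.027 with no filter, 0.10 with limma-voom and -0.49 to 0.61 with a library left out. Cth had -0.04 and -0.066 with upper quartile and total-count scaling, -0.008 with DESeq2, -0.31 with thinned counts and -0.27 to 0.25 with a library left out. Ift27 had 0.13 with limma-voom and -0.74 to 1.23 with a library left out. Sox9 ranged from -0.81 to 0.63 and Hist3h2a from -0.81 to 3.85 with a library left out.

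The groups share library numbers in the labels. With the number as a replicate block, 2176 genes were higher, 1894 lower and 22% of X genes lower, 1 named gene lost its call (Nme7, adjusted p = 0.0718), and no other called gene named did. Spp1 (3.47, adjusted p = 2.54e-04) and Sycp1 (2.62, adjusted p = 8.92e-04) gained one. Gclm (0.054), Cth (-0.001) and Ift27 (0.20) turned sign with the block. The deviations of same-numbered libraries from their group means correlated at -0.243 over 11956 genes. With 2 libraries a group this is a single comparison, and it cannot settle whether the numbers pair the libraries. With the numbers crossed, an alternative chosen after seeing the data, 2832 genes were higher and 2604 lower, and Spp1, Sycp1 and Hist3h2a gained a call, with Gclm, Cth and Ift27 at 0.054, -0.009 and 0.19.

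Depth limits low genes. Detection of 3 counts took 1.16 CPM in USg 1 and 0.525 in USg 2, and 4806 of 16762 genes had too few counts to test. In simulated libraries of this size, with a far smaller share of genes changed than was called here, 2-fold changes were not recovered. The real fit did call some genes near 2-fold, such as Nme7 at a log2 fold change of 1.12. The call of Nme7 was lost in 4 of the alternatives. A gene not called here may still differ by 2-fold.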
